A study of Homo sapiens with 9 samples.

Results

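The interferon-stimulated and antigen presentation genes of SKOV3 cells were followed as a set of 44 named genes. Each gene was read from a probe set annotated to it alone. Of the 44, 39 had such a probe set, among 14215 genes so measured in all, and no member had more than 1. IFITM2, IFITM3, USP18 and PSMB9 stood only on probe sets shared with another gene, and STAT2 had no probe set in the annotation used, so these 5 are named without values. SKOV3 is an established human ovarian tumour line. Total RNA came from 9 separate culture flasks, 1 array per flask, with 3 flasks in each group. The groups were untreated cells, cells given 50 µM peracetylated GlcNAc (Ac-GlcNAc) and cells given 50 µM peracetylated 4-deoxy-GlcNAc (Ac-4-deoxy-GlcNAc), an analog of the same amino sugar that lacks 1 ring hydroxyl. All flasks were kept for 3 days in the same medium with serum. Whether the untreated flasks received a vehicle is not given in the sources used here, and a single line is 1 model of ovarian tumour cells.

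Type I interferons bind the receptor pair IFNAR1 and IFNAR2, whose kinases JAK1 and TYK2 activate a transcription complex that holds STAT2 and IRF9. This complex binds the interferon-stimulated response element, the ISRE, in the promoters of interferon-stimulated genes. Their products sense viral RNA, block viral entry and replication, modify proteins with ISG15, or load peptides onto MHC class I for T cells. Tumour cell lines can carry part of this programme without added interferon.

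The ISRE letters are shown because they are what many of these promoters share. RefSeq promoter windows on GRCh38.p14, from 250 bases before to 50 after each listed start, were found for 37 of the 44 members. The ISRE was searched as TTTC, any 2 bases and TTTC again, or on the other strand as GAAA, any 2 bases and GAAA. Matches could overlap, and such letters were present for 26 of the 37 genes, which is 70.3%. The share over all 27305 genes with a window was 4.38%. The letters TTCNNNGAA, which are their own reverse complement and were searched as the GAS element of interferon gamma signalling, were present for 13 of the 37 members and 9.38% of all genes. The stretches below each hold 60 bases upstream of the most upstream listed start, written 5′ to 3′ along the gene, with ISRE letters in capitals. The first 6 belong to genes that were lower with Ac-4-deoxy-GlcNAc, and the last 4 are examples of genes that were not called.
IFITM1: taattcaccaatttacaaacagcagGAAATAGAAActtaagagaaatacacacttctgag
IFI44L: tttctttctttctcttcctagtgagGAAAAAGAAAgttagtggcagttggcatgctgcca
IFI44: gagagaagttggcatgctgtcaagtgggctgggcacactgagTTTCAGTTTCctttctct
IFI27: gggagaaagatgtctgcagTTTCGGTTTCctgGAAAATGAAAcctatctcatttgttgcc
SAMD9: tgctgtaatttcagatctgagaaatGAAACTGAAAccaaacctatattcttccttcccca
TAP1: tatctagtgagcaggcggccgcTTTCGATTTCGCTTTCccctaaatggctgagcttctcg
ISG15: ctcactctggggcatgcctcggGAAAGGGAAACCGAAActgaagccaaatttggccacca
IFIT1: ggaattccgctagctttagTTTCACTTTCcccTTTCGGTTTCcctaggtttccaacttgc
HERC5: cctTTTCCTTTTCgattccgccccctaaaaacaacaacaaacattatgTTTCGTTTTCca
B2M: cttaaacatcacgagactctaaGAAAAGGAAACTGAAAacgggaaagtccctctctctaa
On the plus strand these lie at chr11:313975-314034 for IFITM1, chr1:78620350-78620409 for IFI44L, chr1:78649729-78649788 for IFI44 and chr14:94110609-94110668 for IFI27. Also on the plus strand are the stretches at chr1:1013362-1013421 for ISG15, chr10:89392488-89392547 for IFIT1, chr4:88456997-88457056 for HERC5 and chr15:44711351-44711410 for B2M. On the minus strand are those at chr7:93118081-93118140 for SAMD9 and chr6:32853801-32853860 for TAP1. A match is a run of letters and not a measured binding site.

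With Ac-4-deoxy-GlcNAc, 9 of the 39 measured members were lower than in untreated cells and 0 were higher, at an adjusted p under 0.05 (limma). They were IFITM1, IFI44L, PARP9, SAMD9L, IFI44, SAMD9, IFI27, TAP1 and OAS1, and the falls ran from 0.38 to 1.03 on the log2 scale. Over all 17859 probe sets, 5.64% were called lower, 5.38% higher and 11.0% in either direction in this comparison, against 23.1% of the members called lower. The members were chosen with earlier results of these data known. The median difference over the 39 members was -0.05, which was also the median over all probe sets. The other 30 members ran from -0.32 to 0.37, and 22 of them lay within 0.2 of 0. The 9 genes were spread over 5 of the roles below, and beside IFITM1, the one measured gene of its family, each of those roles also held uncalled genes. In RNA from whole flasks, fewer cells that express a gene cannot be told apart from less RNA per cell.

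**Figure D1:**
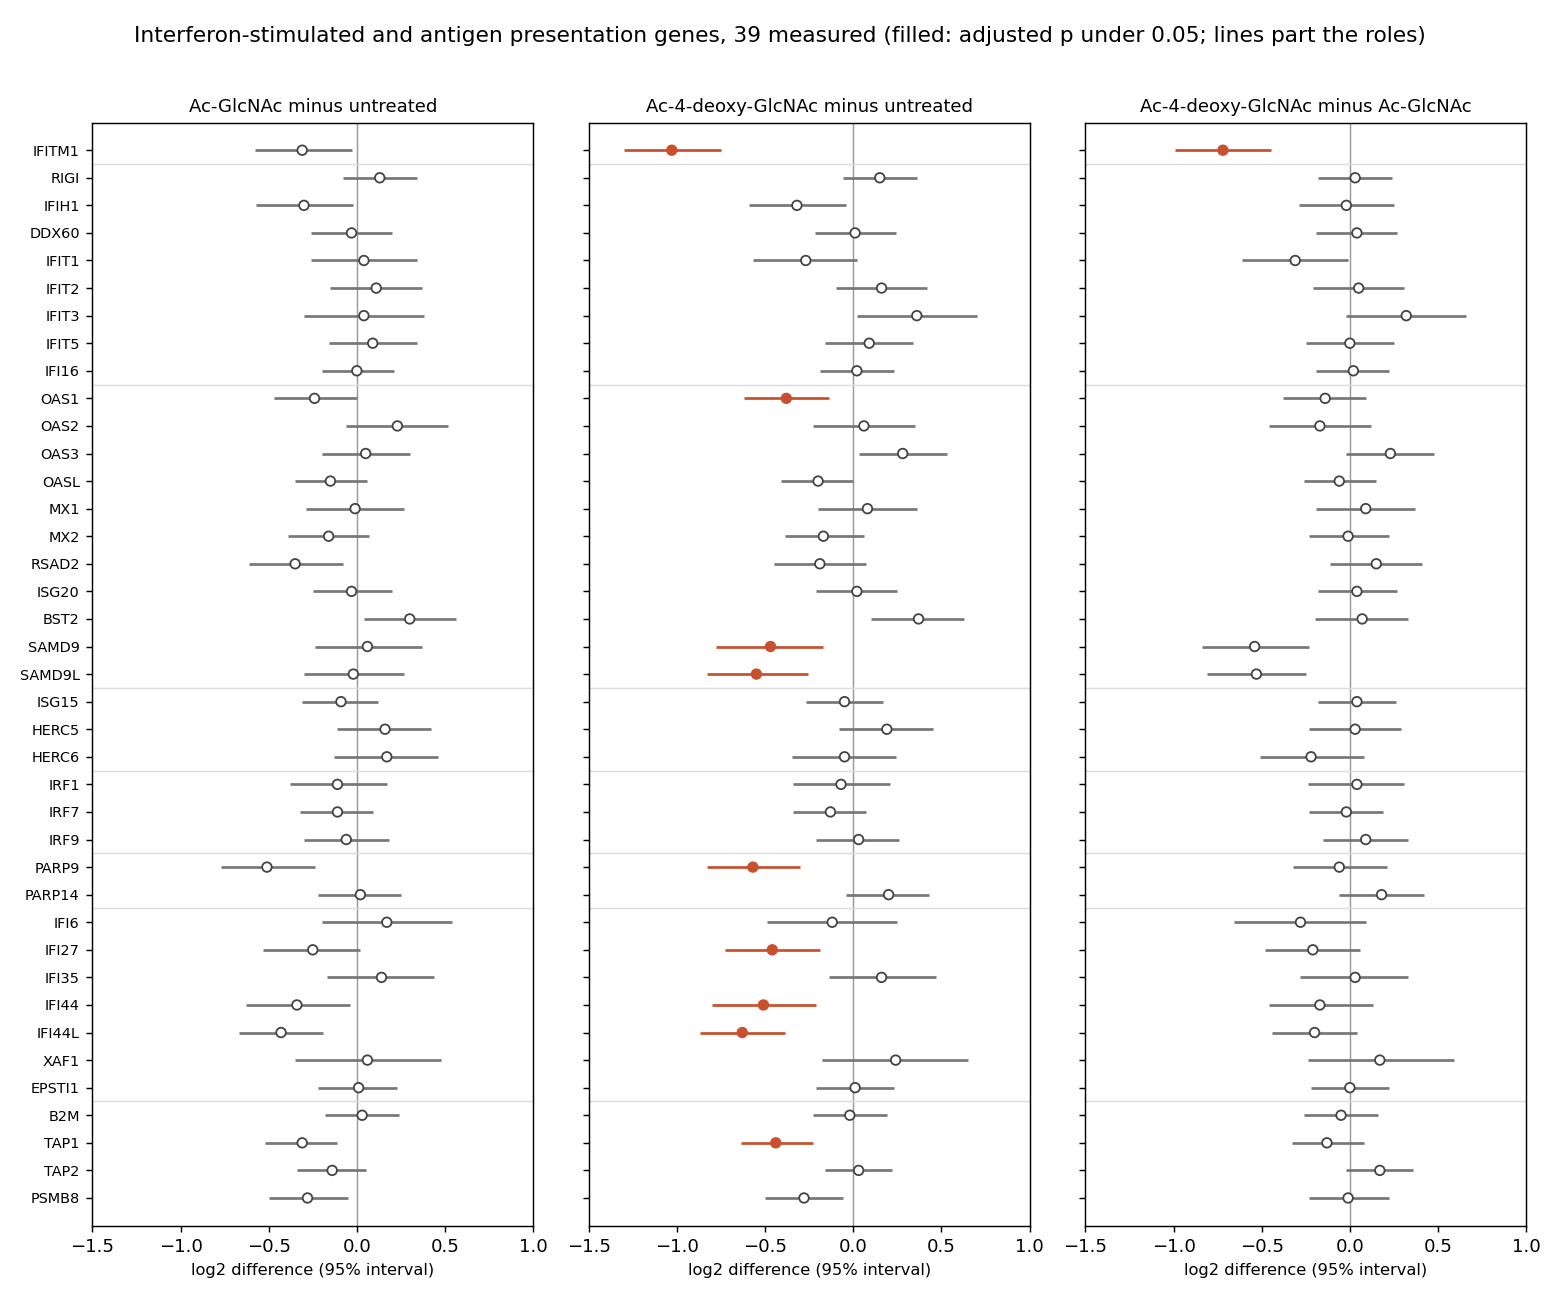
Log2 differences of the 39 measured members (points) with 95% intervals (lines) for the 3 comparisons, 3 arrays per group, ordered by role, with filled orange points for an adjusted p under 0.05. The 9 filled points of the middle panel all lie left of 0, the left panel has no filled point, and in the right panel IFITM1 alone is filled at -0.72.

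IFITM1 encodes an interferon-induced membrane protein that hinders the entry of enveloped viruses. Its log2 values (probe set 3315675) were 8.27, 8.36 and 8.08 on the untreated arrays, 7.91, 7.98 and 7.89 with Ac-GlcNAc, and 6.93, 7.46 and 7.24 with Ac-4-deoxy-GlcNAc. The 3 groups did not overlap, with Ac-GlcNAc between the other groups. Ac-4-deoxy-GlcNAc lowered IFITM1 2.04-fold against untreated cells (log2 -1.03, SE 0.13, adjusted p = 0.000688). Leaving out any 1 of the 6 arrays kept the call, with differences from -1.15 to -0.89. IFITM1 lies between IFITM2 and IFITM3, close paralogs whose RNA could share probes, and how the probe set treats them was not tested.

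The antiviral effectors act on viral RNA and particles. OAS1 makes the 2′-5′ oligoadenylates that activate RNase L. Its values (probe set 3432438) were 6.32, 6.43 and 6.28 untreated, 6.03, 6.27 and 6.02 with Ac-GlcNAc, and 5.78, 6.10 and 6.0 with Ac-4-deoxy-GlcNAc. Both treated groups lay below all untreated arrays, for Ac-GlcNAc narrowly (6.27 against 6.28), and overlapped each other. With Ac-4-deoxy-GlcNAc OAS1 fell by 0.38 (SE 0.11, adjusted p = 0.0417). The call was lost when untreated replicate 2 (adjusted p = 0.108) or 3 (0.0624) was dropped, or when Ac-4-deoxy-GlcNAc replicate 1 (0.127) or 3 (0.106) was. Its neighbours in the same cluster were not called. OAS3 differed by 0.28 (95% interval 0.03 to 0.53, adjusted p = 0.124) and OAS2 by 0.06 (-0.23 to 0.35). OASL, a related gene without synthetase activity, differed by -0.20 (-0.41 to 0.00).

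SAMD9 and SAMD9L are adjacent paralogs whose products restrict poxviruses and limit growth. SAMD9L (probe set 3061456) was measured at 7.67, 7.44 and 7.92 untreated, 7.55, 7.63 and 7.80 with Ac-GlcNAc, and 6.93, 7.28 and 7.18 with Ac-4-deoxy-GlcNAc. SAMD9 (probe set 3061438) was measured at 8.72, 8.54 and 8.95, at 8.65, 8.73 and 9.03, and at 8.09, 8.52 and 8.18 in the same order. For both genes the untreated and Ac-GlcNAc arrays overlapped, and the Ac-4-deoxy-GlcNAc arrays lay below all others, for SAMD9 by a margin of 0.02 between single arrays. With Ac-4-deoxy-GlcNAc, SAMD9L fell by 0.55 (SE 0.13, adjusted p = 0.0216) and SAMD9 by 0.47 (SE 0.14, adjusted p = 0.0473). Dropping untreated replicate 3 (adjusted p = 0.0639), or Ac-4-deoxy-GlcNAc replicate 1 (0.0711) or 3 (0.0643), ended the call of SAMD9L. The same arrays (0.126, 0.126 and 0.169) and untreated replicate 1 (0.0593) each decided the call of SAMD9. As paralogs the 2 genes may share probes, so they are not separate evidence.

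The other effectors did not pass the test with Ac-4-deoxy-GlcNAc. BST2, or tetherin, which holds budding virions at the cell surface, had the largest positive difference of all members, 0.37 (95% interval 0.10 to 0.63, adjusted p = 0.0674). Its values were 7.53, 7.22 and 7.50 untreated and 7.71, 7.73 and 7.90 with Ac-4-deoxy-GlcNAc, which did not overlap, and it was called without untreated replicate 1. A second probe set names BST2 together with PLVAP and was not used. MX1 and MX2, dynamin-like GTPases that block viral replication, differed by 0.08 (-0.20 to 0.36) and -0.17 (-0.39 to 0.06). RSAD2, or viperin, differed by -0.19 (-0.45 to 0.07) and the exonuclease ISG20 by 0.02 (-0.21 to 0.25).

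Of the 8 RNA sensors and IFIT genes, 0 were called with either compound (limma), and at an unadjusted p under 0.05 there was 1 with Ac-GlcNAc and 2 with Ac-4-deoxy-GlcNAc. Over all probe sets 0.442% and 11.0% were called, and 26.4% and 31.2% passed unadjusted. RIGI and IFIH1 encode cytosolic sensors of viral RNA, and differed from untreated by 0.15 (-0.06 to 0.36) and -0.32 (-0.59 to -0.04, adjusted p = 0.113) with Ac-4-deoxy-GlcNAc. IFIT proteins bind foreign RNA caps and ends. IFIT1 differed by -0.27 (-0.57 to 0.02), IFIT2 by 0.16 (-0.10 to 0.42), IFIT3 by 0.36 (0.02 to 0.70, adjusted p = 0.145) and IFIT5 by 0.09 (-0.16 to 0.34). The members of this gene cluster thus had differences on both sides of 0. DDX60, a helicase linked to RIGI, differed by 0.01 (-0.22 to 0.24) and the DNA sensor IFI16 by 0.02 (-0.19 to 0.23).

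PARP9 (probe set 2692060) acts with the ubiquitin ligase DTX3L in the interferon response. It was measured at 7.46, 7.85 and 7.68 untreated, at 7.19, 6.93 and 7.35 with Ac-GlcNAc, and at 7.10, 7.14 and 7.06 with Ac-4-deoxy-GlcNAc. Both treated groups lay below all untreated arrays. With Ac-4-deoxy-GlcNAc PARP9 fell by 0.57 (SE 0.12, adjusted p = 0.0137). Dropping replicate 3 of that group ended the call (adjusted p = 0.0619). DTX3L, the next gene on the chromosome, differed by 0.00 (adjusted p = 0.991). PARP14, a mono-ADP-ribosyltransferase of the same family, differed by 0.20 (-0.04 to 0.43, adjusted p = 0.235), with its 3 arrays above the untreated ones.

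IFI44 and its neighbour IFI44L are interferon-induced genes whose products dampen or modify antiviral responses. IFI44L (probe set 2343473) had values of 4.63, 4.96 and 4.76 untreated, 4.21, 4.39 and 4.45 with Ac-GlcNAc, and 4.18, 4.26 and 4.02 with Ac-4-deoxy-GlcNAc. IFI44 (probe set 2343511) had values of 5.53, 5.89 and 5.32, of 5.08, 5.36 and 5.29, and of 5.06, 5.21 and 4.95 in the same order. In both genes every Ac-4-deoxy-GlcNAc array was below every untreated array, and untreated replicate 2 was the highest. IFI44L fell by 0.63 (SE 0.11, adjusted p = 0.0051), and on dropping 1 of the 6 arrays it was still called, with differences from -0.71 to -0.54. IFI44 fell by 0.51 (SE 0.14, adjusted p = 0.0333), a call that ended on dropping untreated replicate 2 (adjusted p = 0.101), or Ac-4-deoxy-GlcNAc replicate 1 (0.0745) or 3 (0.143).

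Low values moved as a class in these arrays. IFI44L was in the lowest 25% of probe sets by mean value, where the median difference over 4465 probe sets was -0.18 with Ac-4-deoxy-GlcNAc, against 0.06 in the highest 25%. IFI44 and OAS1 lay in the next class up from the lowest, with a median of -0.09, and the other 6 called members lay above. Untreated replicate 2 had the narrowest spread of values, with an SD of 1.92 against 2.07 to 2.18 elsewhere, and a median of 4.65 in the lowest 25% against 4.16 to 4.36. After cyclic loess, which set the medians of all 4 classes to 0.00, the 9 members were again called, with IFI44L at -0.46 (adjusted p = 0.00925), IFI44 at -0.40 (0.0444) and OAS1 at -0.34 (0.043).

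IFI27 (probe set 3549575), one of the most strongly interferon-induced genes in many cells, was at 7.62, 7.62 and 7.61 untreated. Its values were 7.33, 7.62 and 7.12 with Ac-GlcNAc and 7.01, 7.11 and 7.33 with Ac-4-deoxy-GlcNAc. The untreated arrays were within 0.01 of each other, while the treated ones spread more widely. IFI27 fell by 0.46 with Ac-4-deoxy-GlcNAc (SE 0.13, adjusted p = 0.0343). Its call ended when untreated replicate 2 (adjusted p = 0.0761) or 3 (0.0654), or Ac-4-deoxy-GlcNAc replicate 1 (0.0993) or 2 (0.0726), was dropped. IFI6, a mitochondrial and membrane protein, differed by -0.12 (-0.49 to 0.25), with 8.30 on Ac-4-deoxy-GlcNAc replicate 1 against 8.99 and 9.07 on the others. IFI35, XAF1 and EPSTI1 differed by 0.16 (-0.14 to 0.47), 0.24 (-0.18 to 0.65) and 0.01 (-0.21 to 0.23).

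**Figure D2:**
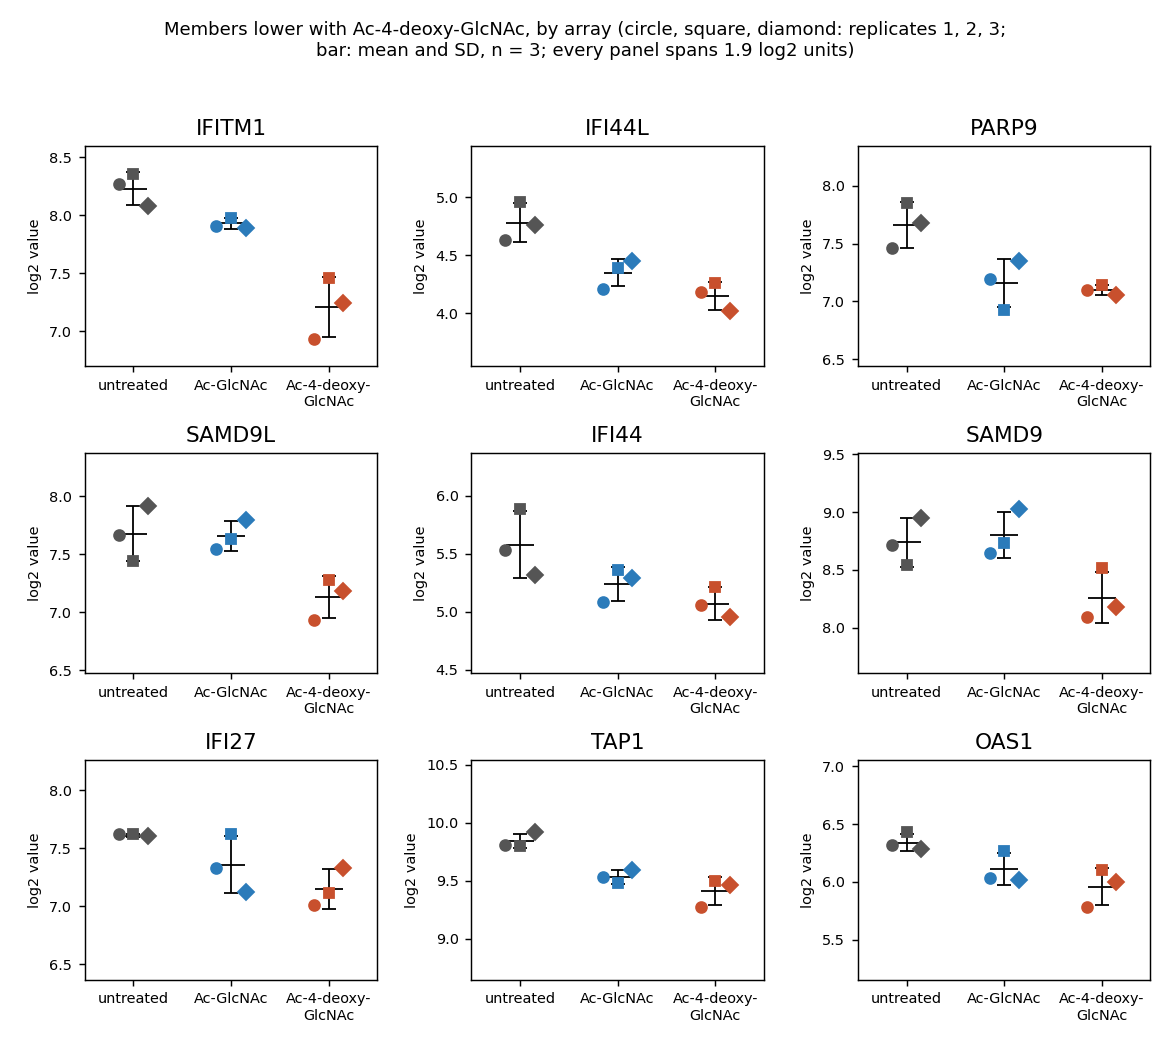
Log2 values on each of the 9 arrays for the 9 members called lower with Ac-4-deoxy-GlcNAc, one panel per gene, with the mean and SD of each group (n = 3). In every panel the 3 Ac-4-deoxy-GlcNAc arrays lie below the 3 untreated arrays, and for IFITM1, SAMD9 and SAMD9L they also lie below the 3 Ac-GlcNAc arrays.

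The ISG15 system attaches a ubiquitin-like protein to other proteins. ISG15 was at 6.59, 6.83 and 6.57 untreated, 6.57, 6.56 and 6.58 with Ac-GlcNAc, and 6.58, 6.52 and 6.74 with Ac-4-deoxy-GlcNAc, and the groups overlapped. Its difference from untreated was -0.05 with Ac-4-deoxy-GlcNAc (95% interval -0.27 to 0.17). HERC5, the ligase for ISG15, and its neighbour HERC6 differed by 0.19 (-0.08 to 0.45) and -0.05 (-0.35 to 0.24). The transcription factors were within a like range. IRF9, the DNA-binding part of the ISRE complex, differed by 0.03 (-0.21 to 0.26), IRF7 by -0.13 (-0.34 to 0.07) and IRF1, which drives many MHC class I genes, by -0.07 (-0.34 to 0.21).

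In the class I pathway, TAP1 was the member called. TAP1 and TAP2 form the transporter that moves peptides into the endoplasmic reticulum. TAP1 (probe set 2950214) was at 9.81, 9.80 and 9.92 untreated, 9.53, 9.48 and 9.59 with Ac-GlcNAc, and 9.27, 9.50 and 9.46 with Ac-4-deoxy-GlcNAc. Both treated groups lay below all untreated arrays and overlapped each other. With Ac-4-deoxy-GlcNAc TAP1 fell by 0.44 (SE 0.10, adjusted p = 0.0136), and dropping replicate 1 of that group ended the call (adjusted p = 0.0571). TAP2, on a probe set of its own beside another shared with HLA-DOB, differed by 0.03 (-0.16 to 0.22). PSMB8, an immunoproteasome subunit encoded next to TAP1, differed by -0.28 (-0.50 to -0.06, adjusted p = 0.089), with groups that did not overlap. B2M, the light chain of MHC class I, was at 11.07, 10.87 and 10.89 untreated and 10.99, 10.85 and 10.94 with Ac-4-deoxy-GlcNAc, a difference of -0.02 (-0.23 to 0.19).

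Counted by arrays alone, 13 of the 39 members had all Ac-4-deoxy-GlcNAc arrays below all untreated arrays and 3 had them above, where 19.1% and 13.0% of all probe sets did so, 32.1% in all. At an unadjusted p under 0.05, 14 members passed, 11 of them lower, beside 31.2% of all probe sets. The 13 were the 9 called genes with IFIH1, OASL, MX2 and PSMB8, and the 3 were IFIT3, BST2 and PARP14. In a moderated F test over the 3 groups, 6 of 39 members passed, IFITM1, IFI44L, PARP9, SAMD9L, TAP1 and SAMD9, a share of 15.4% against 8.36% of all probe sets. On dropping Ac-4-deoxy-GlcNAc replicate 3, IFITM1 and IFI44L were the 2 left in the F test, and 3 were left on dropping Ac-GlcNAc replicate 2, or replicate 1 of the Ac-4-deoxy-GlcNAc arrays. The count of 9 members lower with Ac-4-deoxy-GlcNAc was 6 on dropping untreated replicate 2 and 5 on dropping untreated replicate 3. On dropping Ac-4-deoxy-GlcNAc replicate 1 it was 3, and 4 for replicate 3, beside 890 and 604 probe sets called in place of 1968.

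**Figure D3:**
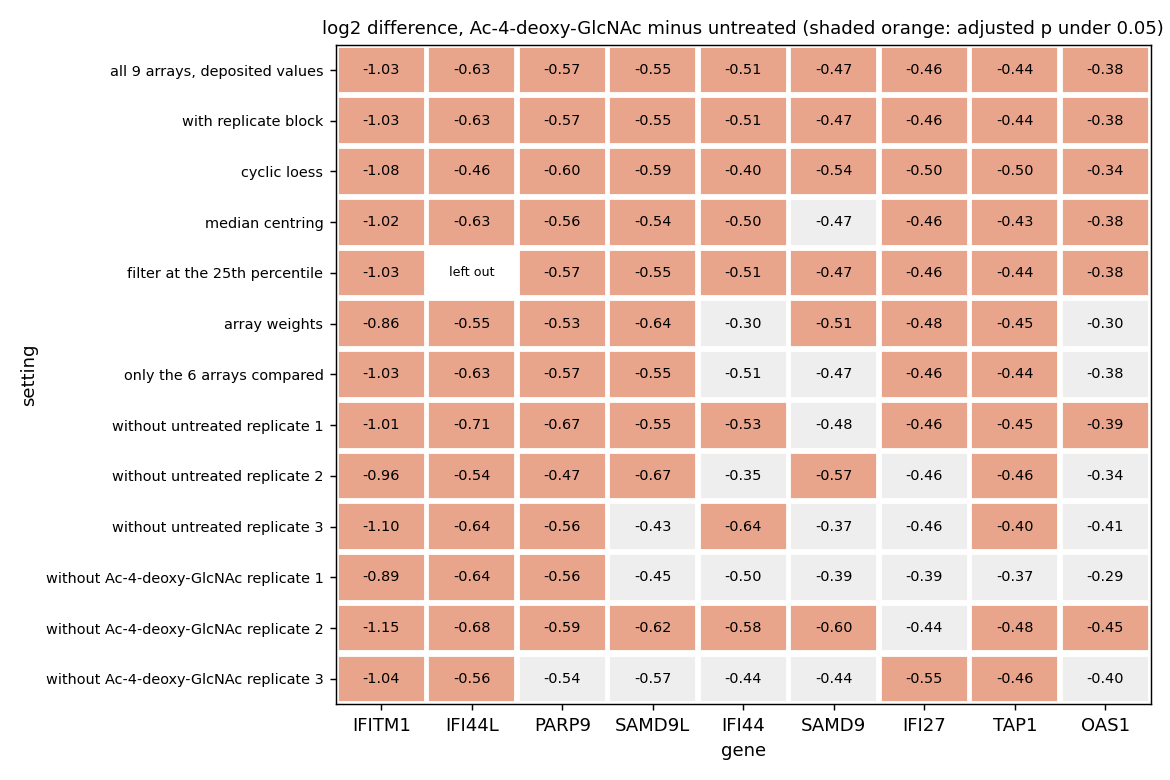
Log2 difference of the 9 called members, Ac-4-deoxy-GlcNAc minus untreated, under each setting tried (rows), with orange cells for an adjusted p under 0.05. IFITM1 is orange in every row and IFI44L in each row that tests it, while OAS1 and SAMD9 lose the call in 6 rows each, and no value turns positive.

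With Ac-GlcNAc, 0 of the 39 members were called against untreated cells, where 0.442% of all probe sets were called (limma). At an unadjusted p under 0.05, 9 members passed, 8 of them lower, beside 26.4% of all probe sets. All Ac-GlcNAc arrays lay below all untreated arrays for 8 members and above for 0, beside 19.3% and 13.0% of all probe sets and 32.3% in either direction. Among the members with a difference beyond 0.3 were PARP9 at -0.51 (95% interval -0.77 to -0.24, adjusted p = 0.0761), IFI44L at -0.43 (-0.67 to -0.19, 0.0851), RSAD2 at -0.35 (-0.61 to -0.08, 0.116) and TAP1 at -0.31 (-0.52 to -0.11, 0.0965). With cyclic loess TAP1 was called. With array weights 7 members were called, 6 lower and BST2 higher, which is 17.9% of them beside 9.85% of all probe sets under that setting. Without untreated replicate 1, which raised the calls over all probe sets from 79 to 1359, IFI44L and PARP9 were called. The median over the 39 members was -0.02, equal to that over all probe sets.

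Both compounds were set against the same 3 untreated arrays, so their differences share that error. Side by side, Ac-GlcNAc and Ac-4-deoxy-GlcNAc gave -0.51 and -0.57 for PARP9, -0.43 and -0.63 for IFI44L, and -0.31 and -0.44 for TAP1. They gave -0.34 and -0.51 for IFI44, -0.25 and -0.46 for IFI27, and -0.24 and -0.38 for OAS1. For IFITM1 they gave -0.31 and -1.03, for SAMD9L -0.02 and -0.55, and for SAMD9 0.06 and -0.47. The direct comparison of the compounds does not use the untreated arrays for its means.

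At the same dose and time, the level of IFITM1 under Ac-4-deoxy-GlcNAc was 1.65-fold below that under Ac-GlcNAc (log2 -0.72, SE 0.13, 95% interval -0.99 to -0.45, adjusted p = 0.0101). It was the only 1 of 39 members called between the compounds, where 2.38% of all probe sets were called, 1.48% lower and 0.896% higher. Arrays did not overlap for 4 lower and 2 higher members, beside 11.6% and 9.56% of all probe sets, 21.2% in all. The call was lost without Ac-GlcNAc replicate 2 (log2 -0.69, adjusted p = 0.0501) and held on dropping any other of the 6 arrays. SAMD9L differed by -0.53 (-0.81 to -0.25, adjusted p = 0.0538) and SAMD9 by -0.54 (-0.84 to -0.23, adjusted p = 0.0666), on arrays that did not overlap. Both were called without Ac-4-deoxy-GlcNAc replicate 2, and SAMD9L also with cyclic loess. For the other members called against untreated cells the interval of the difference between compounds included 0. It was -0.32 to 0.21 for PARP9, -0.33 to 0.08 for TAP1, -0.44 to 0.04 for IFI44L, -0.46 to 0.13 for IFI44, -0.48 to 0.06 for IFI27 and -0.38 to 0.09 for OAS1. These intervals leave room for a difference in either direction. ISG15, B2M and MX1 had intervals of -0.18 to 0.26, -0.26 to 0.16 and -0.19 to 0.37.

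The genes that start and carry the signal were taken from further lists, chosen with earlier results of these data known. Of 10 interferon ligand genes 6 were measured and 0 were called with Ac-4-deoxy-GlcNAc (limma), with 0 also at an unadjusted p under 0.05. Over all probe sets 11.0% were called and 31.2% passed unadjusted. All 6 ligand genes lay in the lowest class of probe sets by mean value, so the lack of a call does not show unchanged expression. IFNB1, the gene for interferon beta, read between 3.18 and 3.38 on all 9 arrays, at percentile 0 of the mean values. IFNA2 had a difference of -0.32 (adjusted p = 0.178). Of 15 measured receptor, JAK-STAT and inhibitor genes, Ac-4-deoxy-GlcNAc raised 2 and lowered 1, beside 5.38% and 5.64% of all probe sets. PTPN11, the phosphatase SHP2, rose by 0.51 (SE 0.13, adjusted p = 0.0302) and JAK2, the kinase of the interferon gamma receptor, by 0.34 (SE 0.09, adjusted p = 0.0322). IFNLR1, the receptor of interferon lambda, fell by 0.43 (SE 0.12, adjusted p = 0.0308). On dropping each of the 6 arrays in turn, PTPN11 and JAK2 kept the call 2 times each and IFNLR1 3 times.

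The receptor chains for type I interferon were measured without a call. IFNAR1 differed by 0.46 with Ac-GlcNAc (95% interval 0.18 to 0.74, adjusted p = 0.0891) and by 0.13 with Ac-4-deoxy-GlcNAc (-0.15 to 0.41). IFNAR2 differed by 0.29 (0.04 to 0.54) and 0.34 (0.08 to 0.59, adjusted p = 0.0795). The kinases JAK1 and TYK2 differed with Ac-4-deoxy-GlcNAc by -0.01 (-0.23 to 0.21) and -0.03 (-0.26 to 0.20). The inhibitors SOCS1 and SOCS3 differed by 0.01 (-0.26 to 0.29) and 0.33 (0.10 to 0.57, adjusted p = 0.0637).

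Of 17 measured genes of nucleic acid sensing, TRAF3, an adaptor on the way to interferon induction, rose by 0.41 with Ac-4-deoxy-GlcNAc (SE 0.11, adjusted p = 0.035). CGAS, the cytosolic DNA sensor, fell by 0.48 (SE 0.13, adjusted p = 0.0354). These 2 of 17 are 11.8%, beside 11.0% of all probe sets. Each kept the call in 3 of 6 refits, and both lost it on dropping untreated replicate 2 or Ac-4-deoxy-GlcNAc replicate 1 or 3. MAVS, TBK1 and IRF3, which relay the signal, had differences of 0.03, 0.21 and 0.12 and were not called.

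Among 32 further type I interferon-stimulated genes, 1 rose and 1 fell with Ac-4-deoxy-GlcNAc, a share of 6.25% called, below the 11.0% of all probe sets. RNF213, a large ubiquitin ligase, had 2 probe sets of its own, and only the one with the higher mean was read. On it RNF213 rose by 0.70 (SE 0.12, adjusted p = 0.00427), with 10.02, 9.54 and 9.75 against 9.15, 9.04 and 9.04 untreated. RNF213 kept the call whichever array was dropped. Against Ac-GlcNAc it was higher by 0.54 (adjusted p = 0.032), a call kept in 1 of 6 such refits. RTP4 fell by 0.46 with Ac-4-deoxy-GlcNAc (SE 0.13, adjusted p = 0.0378) and by 0.74 with Ac-GlcNAc (SE 0.13, adjusted p = 0.0356), each kept in 2 of 6 such refits. The other 30 genes, including EIF2AK2, ADAR and UBE2L6, were not called with Ac-4-deoxy-GlcNAc.

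Of 16 measured interferon gamma targets, Ac-4-deoxy-GlcNAc lowered 2 and raised 1, 18.8% called beside 11.0% of all probe sets. GBP5, a guanylate-binding protein, fell by 0.68 (SE 0.12, adjusted p = 0.00425), from 7.70, 7.73 and 7.91 untreated to 6.94, 7.29 and 7.07, and kept the call whichever array was dropped. Its difference from Ac-GlcNAc was -0.52 (adjusted p = 0.0339), a call kept in 1 of 6 such refits. CXCL9, a T cell chemokine, fell by 0.42 (SE 0.12, adjusted p = 0.0419) at values from 3.83 to 4.69, and kept the call in 1 of 6 such refits and not after cyclic loess (adjusted p = 0.0756). WARS1, a tRNA synthetase that interferon gamma induces, rose by 0.76 (SE 0.11, adjusted p = 0.00159). Against Ac-GlcNAc it was higher by 0.45 (adjusted p = 0.0455), kept in 1 of 6 such refits. The median of this list was -0.23, and 10 of its 16 genes lay in the lowest 25% of probe sets by mean value, where the median over all probe sets was -0.18.

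Of 14 other measured genes of class I presentation, Ac-4-deoxy-GlcNAc lowered 1 and raised 0, 7.14% called beside 11.0% of all probe sets. HLA-F, a non-classical class I heavy chain, fell by 0.45 (SE 0.09, adjusted p = 0.0103), from 8.76, 8.76 and 8.85 to 8.36, 8.40 and 8.24, and dropping Ac-4-deoxy-GlcNAc replicate 3 ended the call (adjusted p = 0.0532). HLA-F resembles the other heavy chains, so signal from related transcripts on its probes cannot be told apart here. HLA-B and HLA-C stood only on probe sets of several genes. HLA-E differed by -0.13 (adjusted p = 0.431) and TAPBP, or tapasin, by -0.05 (adjusted p = 0.759).

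**Figure D4:**
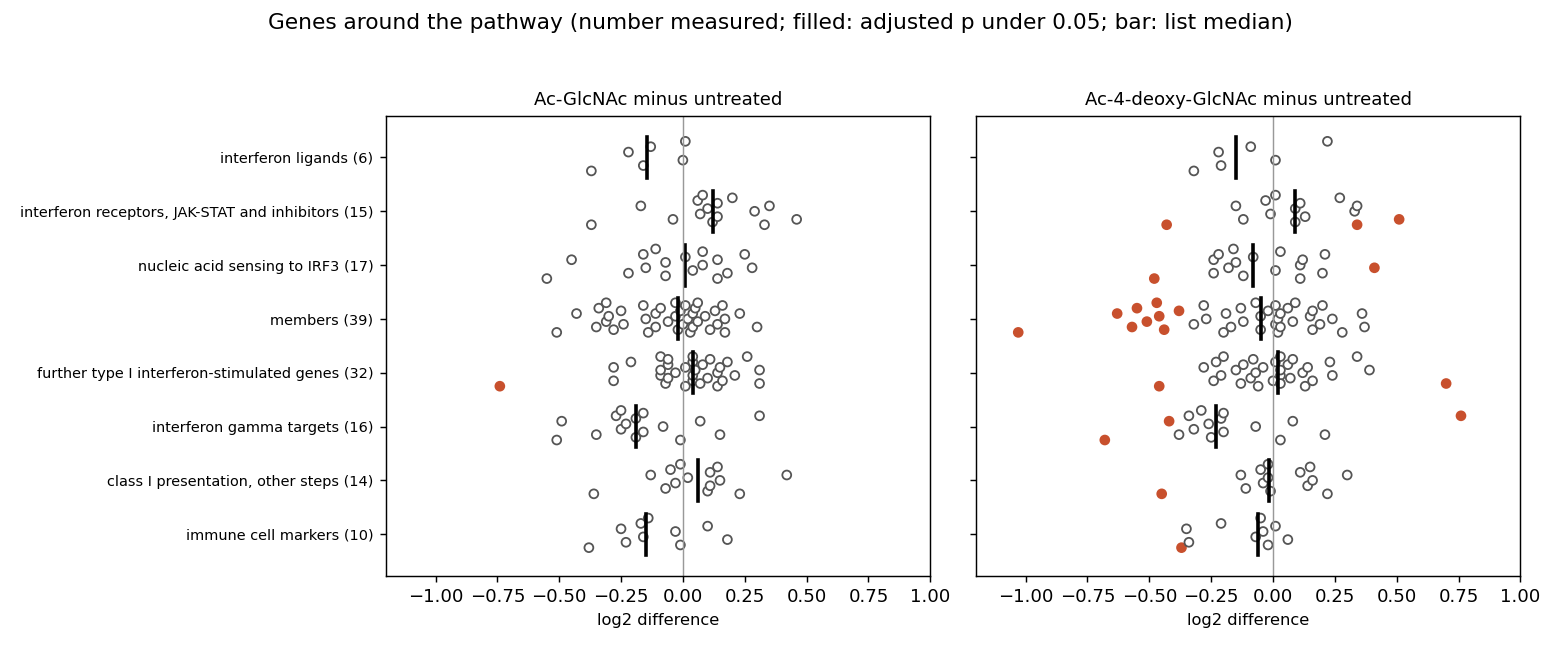
Log2 differences from untreated cells for the measured genes of each list (circles, filled for an adjusted p under 0.05) with the list median (bar), for Ac-GlcNAc on the left and Ac-4-deoxy-GlcNAc on the right. On the right the members have 9 filled points, all below 0, while the 32 further interferon-stimulated genes have 1 on each side.

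The arrays carried the markers of an epithelial tumour line. Of 9 measured SKOV3 and epithelial markers 8 lay above the median of all probe sets, with ERBB2 between 12.18 and 12.30. KRT7 (-0.46, adjusted p = 0.0287) and KRT19 (-0.49, adjusted p = 0.0122) were lower with Ac-4-deoxy-GlcNAc. These 2 of 9 are 22.2%, where 5.64% of all probe sets were called lower. KRT7 lost the call on dropping untreated replicate 1 or Ac-4-deoxy-GlcNAc replicate 1 or 3, and KRT19 on dropping Ac-4-deoxy-GlcNAc replicate 1. MUC16 had no probe set of its own, and WT1 was at 5.57 to 5.89. Of 10 measured immune cell markers, 7, including PTPRC, CD3E and HLA-DRA, were in the lowest 25% of probe sets. The mean over these markers ran from 5.12 to 5.42 on untreated arrays, from 5.06 to 5.20 with Ac-GlcNAc and from 5.06 to 5.13 with Ac-4-deoxy-GlcNAc. CD68, which many non-immune cells also express in lysosomes, was at 8.89 to 9.55 and fell by 0.37 with Ac-4-deoxy-GlcNAc (SE 0.11, adjusted p = 0.0455), a call kept in 0 of 6 such refits. The part of these markers in the results was not tested.

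The ISRE letters did not part the called genes from the rest. They were present for 7 of the 9 members lower with Ac-4-deoxy-GlcNAc, all but OAS1 and SAMD9L, and for 18 of the 25 uncalled members with a window, which is 77.8% and 72.0%. ISG15, IFIT1, HERC5 and B2M carry them in the stretches shown above and had intervals that included 0. The PARP9 match lay upstream of a downstream start listed for the gene, so it is not shown. No match in a window says only that these letters are not there.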

How the data were processed

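Expression was measured on 9 arrays from 9 culture flasks. The deposited table holds 1 log2 value per probe set and array. Per the submitters' processing notes the authors used RMA, Partek and hg18; versions and settings are not given in the sources used here. RMA usually includes quantile normalization, and whether it was run is not stated. The arrays had SDs of 1.92 to 2.18 and medians of 6.58 to 6.65. These are of probe-set values and do not settle whether it was run. Of 17859 probe sets, 14413 name 1 gene, 2405 several and 1041 none. Symbols follow RefSeq GRCh38.p14 by gene identifier, found for 14385 of the 14413. Values of single genes cannot be ordered against each other, since probe sets differ in response. The classes by mean value and the levels of the markers carry the same limit. With 3 arrays per group, differences had a median SE of 0.11.

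All 9 arrays entered 1 fit in limma 3.58.1 (R 4.3.3; lmFit and eBayes) on group alone, leaving 6 degrees of freedom. P-values were two-sided and adjusted by Benjamini-Hochberg across the whole table in each comparison, and an adjusted p under 0.05 was called. The code was tested on simulated arrays. Alternatives were a replicate block, cyclic loess, median centring, a filter at the 25th percentile of mean value, array weights, the 6 compared arrays alone and leaving out each array. Every measured member is named. Members called in any comparison were given on every array, and from other lists up to 4 called genes per comparison, or up to 2 with the smallest p. BST2, ISG15, B2M, IFNB1 and the uncalled genes named from other lists for their role were chosen after their values were seen. Members, lists and rules were chosen with earlier results of these data known. Motifs were searched in RefSeq promoter windows.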

Additional observations from a re-analysis of the deposited data

How the results depend on the processing

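On leaving out each array in turn, the 9 members lower with Ac-4-deoxy-GlcNAc became 3 to 9, the 0 with Ac-GlcNAc became 0 to 2, the 1 between compounds became 0 to 3, and the 6 of the F test became 2 to 6. Over all probe sets the ranges were 604 to 3076 (1968 with all arrays), 4 to 1359 (79) and 141 to 493 (425). Under the other settings the 9 stayed between 6, on the 6 compared arrays alone, and 10 with cyclic loess, which kept all 9 and added PSMB8. Members called with Ac-GlcNAc were 1 with cyclic loess and 7 with array weights. Between compounds they were 2 with the replicate block, cyclic loess or array weights, and 3 with the filter or the 6 compared arrays, SAMD9L being added each time. For all probe sets, Ac-GlcNAc gave 324 with the replicate block, 47 with cyclic loess, 32 with median centring, 1760 with array weights and 48 on the compared arrays. Median centring made that split 19 higher and 13 lower, from 37 higher and 42 lower. Ac-4-deoxy-GlcNAc gave 818 on the compared arrays, and the compounds differed at 1187 with array weights.

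Of 107 refits of the 9 members, 81 kept the call, 26 did not and 0 changed sign. IFI44L was left out by the filter on low values. Replicate numbers are not known to pair flasks: correlations of deviations between same-numbered arrays ran from -0.245 to 0.369, and with the replicate block the same 9 members were called. Another probe set per gene was not run, because no member had more than 1. Among uncalled members, 14 of 30 with Ac-4-deoxy-GlcNAc and 20 of 39 with Ac-GlcNAc changed sign under some setting. The cause of these differences was not tested. Signal over background was not analysed here.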
